A study of Mus musculus with 6 samples.

Results

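Of the genes of the Notch pathway, 8 were followed in blood endothelial cells sorted from mouse intestine: the receptors Notch1, Notch2 and Notch4, the ligands Dll1, Dll4, Jag1 and Jag2, and the DNA-binding factor Rbpj. They were chosen by name, and the array annotation gave each at least 1 probe set that carries its symbol alone. All 8 lay above background, among 15287 genes above background and 22180 measured. Each is described across 3 knockout and 3 control arrays, on the log2 scale of the deposited values.

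Notch receptors sit in the cell membrane and are activated by Delta-like and Jagged ligands on a neighbouring cell. Binding lets proteases release the receptor's intracellular part, which enters the nucleus and joins RBPJ and Mastermind proteins at target genes such as the Hes and Hey repressors. In growing vessels Dll4 on the leading tip cell restrains sprouting of its neighbours through Notch1, Jag1 can oppose Dll4 where Fringe enzymes have modified the receptor, and Notch signalling also favours arterial identity. Notch4 is largely restricted to endothelium, whereas Notch3 is the receptor typical of smooth muscle cells and pericytes.

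Knockout mice carried floxed Apc together with Villin-CreERT2 (Apcfl//fl; Villin-CreERT2), so that tamoxifen removes Apc, an inhibitor of Wnt signalling, where the villin promoter is active, which is the intestinal epithelium and not the endothelium. Control mice were Apcfl//fl, labelled WT, with no Cre named. All mice were adult, on a mixed C57BL/6 x 129 background, and all received tamoxifen subcutaneously on each of 5 days, with the intestine taken on day 6. Cells were sorted as CD31+ and negative for CD45, EpCAM and gp38, and amplified RNA went onto Affymetrix Mouse Gene 2.0 ST arrays. The labels call the arrays of a group biological replicates and do not say how many animals each holds, so p-values measure the spread between these arrays. The comparison asks how endothelial cells differ when the epithelium beside them has lost Apc.

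Endothelial identity was clear on every array. The CD31 gene Pecam1 averaged 11.4 on knockout and on control arrays alike, and all 14 pan-endothelial markers were above background, led by Cdh5 (the junction protein VE-cadherin), Eng and Emcn. Their mean level lay between 10.7 and 10.74 on the control arrays and between 10.79 and 10.86 on the knockout arrays. Transcripts of other cell types were measured too, some at high levels, such as Rgs5 of pericytes at a control mean of 11.7 and Fabp2 of enterocytes at 11.3. The mean of 15 mural cell markers ranged from 8.22 to 8.52 in controls and from 7.45 to 7.87 in knockouts, with 7 called lower and 0 higher. For 17 enterocyte markers the means were 6.72 to 8.70 in controls, lowest in control 1, and 5.24 to 5.62 in knockouts, with 11 called lower and 0 higher. Epcam, whose protein the sort selected against, was 3.87, 7.20 and 6.24 on controls 1 to 3 and 3.74 to 3.81 in knockouts (adjusted p = 0.172). The genes of CD45 (Ptprc) and gp38 (Pdpn) averaged 4.46 and 5.42 in controls and 4.14 and 5.11 in knockouts. Fibroblast markers gave 1 lower and 0 higher call among 9. Lymphatic endothelial markers gave 2 higher (Flt4 and Lyve1) and 0 lower among 7, with 6 positive changes and 1 negative. Leukocyte (13 genes) and enteric glia and neuron markers (4 genes) gave 0 calls by limma, with 4 and 0 genes at an unadjusted p under 0.05. The leukocyte mean still lay apart, at 6.10 to 6.25 in controls and 5.82 to 6.03 in knockouts. No array was left out.

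Promoter sequences from RefSeq (assembly GRCm38.p6, 250 bases before to 50 bases after the transcript start) matched all 8 genes. The Notch4 and Notch1 promoters are shown because, among the 8 genes, these receptors had the largest differences relative to their errors. That of Rbpj is shown because it was the only one of the 8 genes whose windows held the letters that RBPJ itself recognises. Capitals mark TGGGAA, the RBPJ core, or AGGAAG, a core bound by the ETS factors that are active in endothelium, each searched on both strands. Both motifs contain the letters GGAA, and in the windows of these 8 genes no match of one overlapped a match of the other.
Notch4 (chr17:34564045-34564344, + strand): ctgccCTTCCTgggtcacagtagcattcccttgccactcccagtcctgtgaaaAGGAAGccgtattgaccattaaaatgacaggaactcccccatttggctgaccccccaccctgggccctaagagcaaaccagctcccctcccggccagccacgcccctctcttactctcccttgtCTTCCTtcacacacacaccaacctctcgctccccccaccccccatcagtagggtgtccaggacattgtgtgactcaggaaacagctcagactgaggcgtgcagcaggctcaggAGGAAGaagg
Notch1 (chr2:26503773-26504072, - strand): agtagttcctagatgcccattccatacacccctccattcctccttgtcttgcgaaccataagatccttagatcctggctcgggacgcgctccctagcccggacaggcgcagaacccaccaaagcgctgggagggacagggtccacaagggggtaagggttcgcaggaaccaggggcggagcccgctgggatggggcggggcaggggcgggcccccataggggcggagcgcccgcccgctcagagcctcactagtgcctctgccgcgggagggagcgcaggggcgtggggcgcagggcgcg
Rbpj (chr5:53590096-53590395, + strand): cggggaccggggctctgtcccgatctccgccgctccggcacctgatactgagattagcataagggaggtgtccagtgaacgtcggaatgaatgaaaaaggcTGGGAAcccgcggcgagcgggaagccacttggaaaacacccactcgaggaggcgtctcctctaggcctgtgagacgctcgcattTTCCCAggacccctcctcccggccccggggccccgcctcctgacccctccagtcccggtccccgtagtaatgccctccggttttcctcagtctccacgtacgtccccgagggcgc
The Notch4 window held 4 matches to AGGAAG. That motif occurred at least once in 35.4% of 32851 promoter windows of this length, and 4 or more times in 0.432%. The Rbpj window held 2 matches to TGGGAA, a motif found in 25.6% of windows, and 3.79% of windows held 2 or more. Notch1 had neither motif in its window, and 68.3% of its bases were G or C, against a median of 52.7% over all windows. Of the other 5 genes, Dll1 had 1 match to AGGAAG and the rest had none of either. These matches are letters in a window and were not linked to any binding measurement.

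None of the 8 genes passed an adjusted p of 0.05 in either direction. Of all genes tested, 2.61% passed (1.13% higher and 1.48% lower in the knockout). Notch4, Notch1 and Dll1 had knockout arrays that all lay above the controls, and for the other 5 genes the groups overlapped. That is 3 of 8 genes, where 9.79% of all genes tested were separated in this direction, and 0 of 8 in the other, where 12.3% were, or 22.1% in either direction. An unadjusted p under 0.05 was reached by 4 of the 8 (those 3 and Notch2) and by 16.4% of all genes. The members' median change was 0.12, beside -0.017 over all genes and 0.15 over the pan-endothelial markers.

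**Figure D1:**
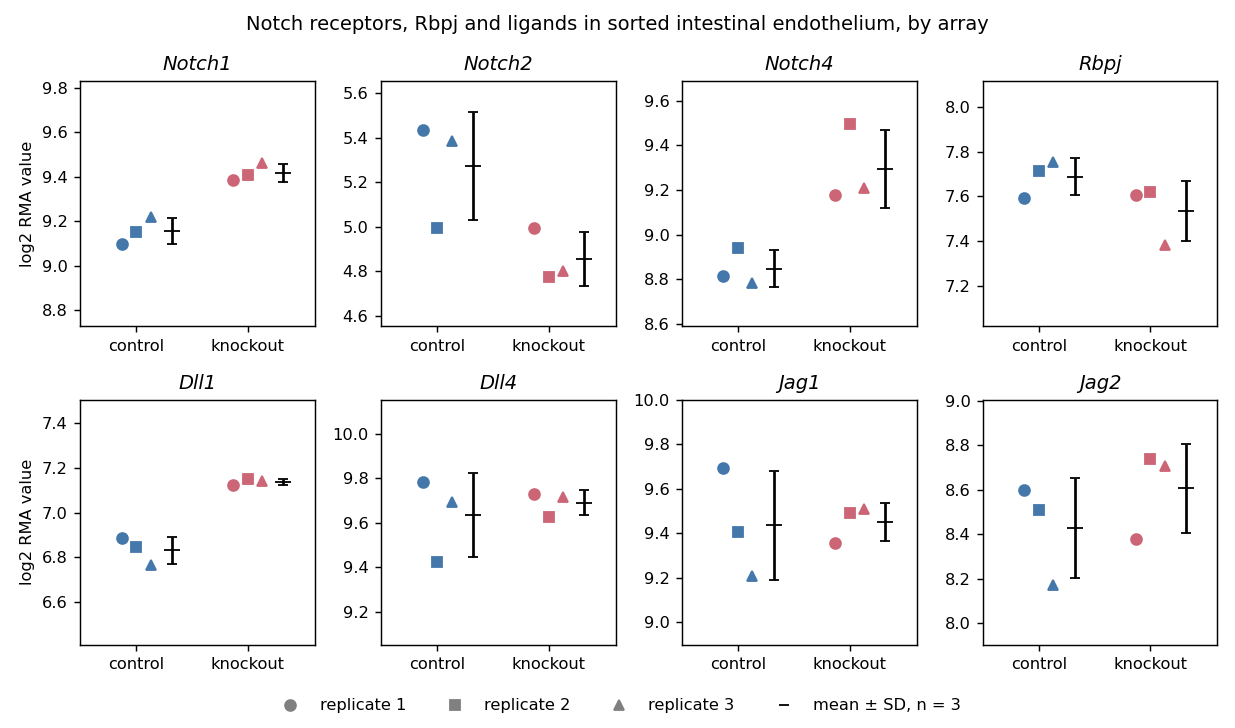
Log2 RMA value of each gene (vertical axis, every panel spanning the same range of log2 units) on the 3 control and 3 knockout arrays (horizontal axis). Points are single arrays, shaped by replicate number, and black marks are the mean and SD of each group (n = 3). Knockout and control arrays are apart for Notch1, Notch4 and Dll1 and overlap for Notch2, Rbpj, Dll4, Jag1 and Jag2.

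Among the receptors Notch1, Notch2 and Notch4, the last differed most for its error. Notch4 is described first. Its log2 values were 9.18, 9.49 and 9.21 on knockout arrays 1 to 3 and 8.82, 8.94 and 8.78 on controls 1 to 3. Every knockout array lay above every control, by at least 0.24, and knockout 2 stood highest. The difference was 0.45 ± 0.10 (SE of the limma fit, n = 3 per group), a 1.36-fold higher level with a 95% interval of 0.21 to 0.68 on the log2 scale (adjusted p = 0.0604). The call turned on the setting. Notch4 passed with a stricter background filter (adjusted p = 0.0498), with arrays shifted to equal medians (adjusted p = 0.0431) and with the replicate block (adjusted p = 0.0460). It did not pass under the other 13 alternatives, where the adjusted p lay between 0.0592 and 0.325.

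Notch1, the receptor through which Dll4 restrains sprouting, showed little spread within groups. It measured 9.39, 9.41 and 9.46 in the knockouts and 9.10, 9.15 and 9.22 in the controls. The lowest knockout was 0.17 above the highest control. The difference of 0.26 ± 0.074 (1.20-fold, 95% interval 0.094 to 0.43) did not pass adjustment (adjusted p = 0.113).

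Several pan-endothelial markers stood higher in the knockout alongside Notch1 and Notch4. Of the 14 markers, 7 had knockout arrays all above the controls and 1 (Emcn) all below, beside 9.79% and 12.3% of all genes tested. Eng, a TGF-beta co-receptor, was the single marker called (0.26 ± 0.044, adjusted p = 0.0210), and Kdr, the main VEGF receptor, was at 0.28 ± 0.064 (adjusted p = 0.0549). Changes were positive for 10 markers and negative for 4: Emcn (-0.087 ± 0.046), Tek (-0.074 ± 0.070), Cdh5 (-0.052 ± 0.044) and Pecam1 (-0.0013 ± 0.052). Shifting the arrays to equal medians of these markers moved the median change of all genes to -0.22. On that scale Notch4 was at 0.25 (adjusted p = 0.116) and Notch1 at 0.061 (adjusted p = 0.644), which is 0.46 and 0.28 above that median. The part of endothelial content in these differences was not tested.

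Notch2 ran the other way, on a dim probe set. Knockout arrays 1 to 3 gave 4.99, 4.77 and 4.80, against 5.44, 4.99 and 5.39 in the controls. Control 2 and knockout 1 were level, and controls 1 and 3 were higher than every knockout. The difference was -0.42 ± 0.16 (95% interval -0.78 to -0.051, adjusted p = 0.237). Its mean level exceeded that of 25.1% of the genes tested and lay above the background level of 4.12. No order of abundance among the receptors can be read from this, since probe sets of different genes bind with different strength.

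**Figure D2:**
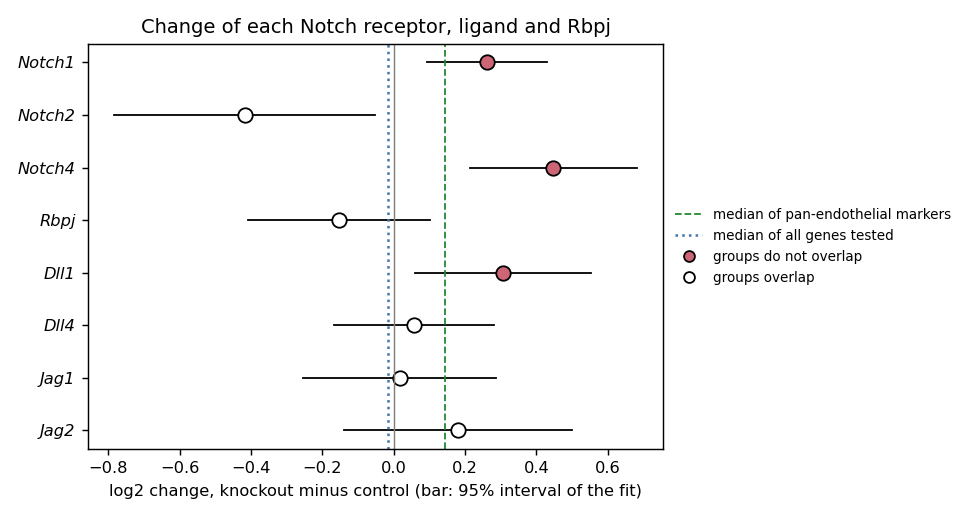
Log2 change of each gene, knockout minus control (horizontal axis), with its 95% interval from the limma fit (black bar). Red points mark genes whose groups did not overlap, the dashed line is the median change of the pan-endothelial markers (0.15) and the dotted line that of all genes tested (-0.017). The intervals of Notch1, Notch4 and Dll1 lie above 0 and that of Notch2 below 0, none of the 4 passing adjustment over all genes.

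Rbpj encodes the DNA-binding partner of every Notch receptor, and its groups overlapped. It measured 7.60, 7.62 and 7.38 in the knockouts and 7.60, 7.71 and 7.76 in the controls. Knockout 3 was lowest, and the other knockouts lay at or near control 1. The difference was -0.15 ± 0.11 (95% interval -0.41 to 0.10, adjusted p = 0.559), and -0.35 with pan-endothelial scaling (adjusted p = 0.0826). A second Rbpj probe set, dimmer at a control mean of 5.68, differed by -0.34, with control 2 alone at 6.09 and the other arrays between 5.20 and 5.50. The RefSeq gene table lists 3 Rbpj pseudogenes, so the Rbpj values, including those of the brighter probe set used here, may hold signal from a near-identical copy, which the annotation used here does not resolve.

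Dll4, the ligand of tip cells, showed no separation between the groups. Knockouts were at 9.73, 9.63 and 9.72, and controls at 9.78, 9.42 and 9.69. The knockout values all fell inside the range of the controls, of which control 2 was low. The difference was 0.057 ± 0.099, and its 95% interval of -0.17 to 0.28 bounds a change at this precision without showing that the groups are equal (adjusted p = 0.828). The sign turned to -0.14 with pan-endothelial scaling, to -0.048 without control 2 and to -0.094 against control 1 alone.

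Jag1, which can act against Dll4, had a spread among controls that spanned the knockouts. It measured 9.35, 9.49 and 9.51 in the knockouts and 9.69, 9.41 and 9.21 in the controls. Control 1 was the highest array and control 3 the lowest, with the knockouts between them. The difference was 0.016 ± 0.12 (95% interval -0.25 to 0.29, adjusted p = 0.968), and its sign was negative in 6 of 16 alternatives.

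Jag2, the other Jagged ligand, varied as much within groups as between them. Knockouts gave 8.38, 8.74 and 8.71 and controls 8.60, 8.51 and 8.17. Knockouts 2 and 3 were the highest arrays, but knockout 1 lay below controls 1 and 2. The difference was 0.18 ± 0.14 (95% interval -0.14 to 0.50, adjusted p = 0.588), and -0.021 with pan-endothelial scaling.

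Dll1, a Delta ligand better known from other tissues, had tight groups that stood apart. Knockouts measured 7.12, 7.15 and 7.14, and controls 6.89, 6.84 and 6.77. The gap between the groups was 0.24, larger than the range within either. The difference was 0.31 ± 0.11 (1.24-fold, 95% interval 0.061 to 0.55, adjusted p = 0.197), and 0.11 with pan-endothelial scaling (adjusted p = 0.524). A second, dimmer Dll1 probe set did not share it. That one gave 6.22, 6.75 and 5.97 in the knockouts and 6.45, 6.39 and 6.10 in the controls, with overlapping groups and a difference of -0.0027. With both probe sets averaged the Dll1 difference was 0.15 (adjusted p = 0.662).

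Whether members moved apart from each other was asked within each array, for 5 pairs. The log2 difference Dll4 minus Jag1 was 0.37, 0.13 and 0.21 in the knockouts and 0.091, 0.016 and 0.48 in the controls. These ranges overlap, and the balance of the ligands changed by 0.041 (exact two-sided permutation test, p = 0.7, 0.7 after adjustment over 5 pairs). Notch1 minus Notch2 was larger in every knockout (4.39, 4.63 and 4.66) than in any control (3.66, 4.16 and 3.83). Its change of 0.68 had an exact permutation p of 0.1, the smallest that 3 arrays against 3 allow, and 0.25 after adjustment. Notch1 minus Notch4 changed by -0.19, Dll4 minus Dll1 by -0.25 and Jag1 minus Jag2 by -0.16, each with overlapping groups and an exact permutation p of 0.2 (0.25 adjusted). Only the change of a difference is read here, not the level of one probe set against another.

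Against the control mean, Dll4, Jag1 and Jag2 stood 0.15, 0.26 and 0.17 higher on control 1, and they were 0.060 above, 0.23 below and 0.25 below it on control 3. The other arterial genes on the list, 18 after Dll4 and Jag1 are set aside, had a mean of 0.17 above the control mean on control 1 and between -0.16 and -0.076 on controls 2 and 3 and the knockouts. Mural markers were also highest on control 1 (0.16). Notch1, Notch4 and Dll1 did not follow control 1, being within 0.094 of their mean on all controls.

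**Figure D3:**
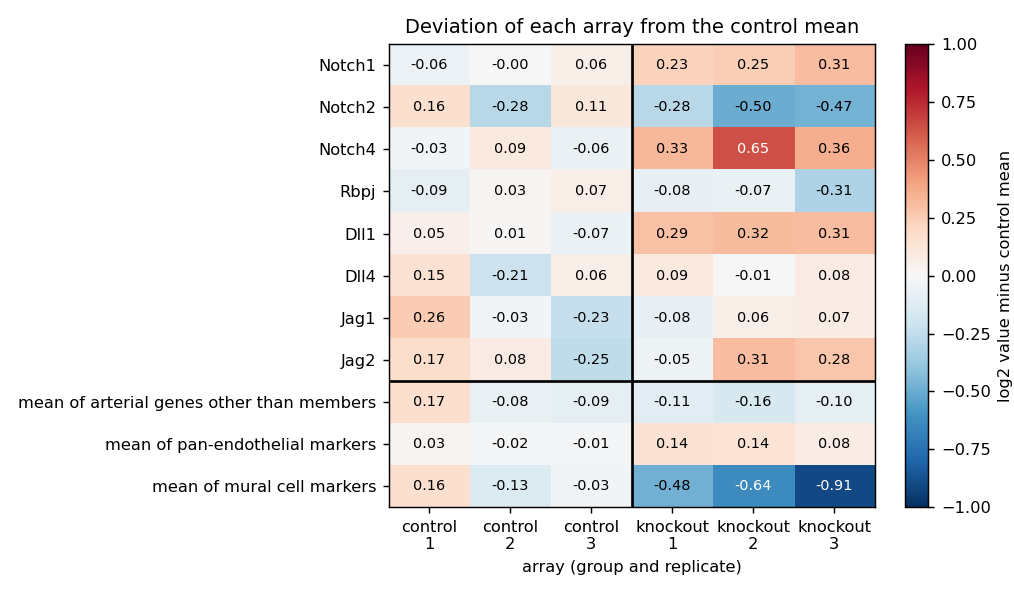
Colour and number give the log2 value of each array (columns, by group and replicate) minus the control mean, for the 8 genes (upper rows) and for the mean of 3 gene lists (lower rows). Notch4 is highest on knockout 2 (0.65), Jag1 is highest on control 1 (0.26), and the mural marker mean is lowest on knockout 3 (-0.91).

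Of the other genes of the pathway, 82 were listed by role, 80 were measured and 78 lay above background, and the 2 not measured are not analysed here. Of these 78, 0 passed as higher and 2 as lower (Notch3 and Heyl), beside 1.13% higher and 1.48% lower over all genes. Their median change was -0.037. An unadjusted p under 0.05 was reached by 17 of them and by 16.4% of all genes, a share to set beside the list counts below.

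Notch3, the mural receptor, was the only Notch receptor that passed. It measured 7.35, 7.11 and 6.66 in the knockouts and 8.21, 8.01 and 7.69 in the controls. Every knockout lay below every control, with knockout 3 lowest. It fell 1.91-fold (log2 change -0.93 ± 0.19, adjusted p = 0.0421). Of the 15 mural markers, 14 had a negative change: Des, a muscle intermediate filament, fell by 1.04 on the log2 scale (adjusted p = 0.00451), Tagln, a smooth muscle actin-binding protein, by 0.70 (adjusted p = 0.0113) and Rgs5, a pericyte regulator of G-protein signalling, by 0.70 (adjusted p = 0.0258). The exception, named after its values were seen, was Abcc9, a subunit of pericyte potassium channels, at 0.49 ± 0.17 with every knockout above every control (adjusted p = 0.179). The list includes Notch3 itself, its median change was -0.76, and all of its members lay above background on the mean of the arrays. Enterocyte markers had a median change of -2.98, with 11 of 17 called lower. Fibroblast markers had a median of -0.30, with 1 of 9 called lower and array means that overlapped between the groups. In sorted bulk samples fewer cells of a type and less RNA per cell cannot be told apart, and the part of mural RNA in the Notch3 difference was not tested.

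Heyl, a Notch target repressor that mural cells also express, was the other call. It gave 7.04, 6.52 and 6.83 in the knockouts and 7.64, 7.44 and 7.88 in the controls, again with no overlap. It fell 1.81-fold (-0.86 ± 0.17, adjusted p = 0.0334), in the direction of the mural and enterocyte markers, whose part was not tested. Both calls were lost without knockout 2, without knockout 3 or without any 1 of the controls, each of which left 0 lower pathway genes called by limma.

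The other target genes above background did not pass. With Heyl included, the 17 split by sign into 8 positive and 9 negative changes, with a median of -0.046. An unadjusted p under 0.05 was reached by 7 of the 17, beside 16.4% of all genes. Every knockout lay above every control for 4 of the 17 and below for 4, beside 9.79% and 12.3% of all genes. The values of Hes1, Hey1, Hey2 and Nrarp are given after they were seen. Hes1 was at -0.22 ± 0.12, Hey1 at -0.18 ± 0.090 and Hey2 at -0.29 ± 0.13 (adjusted p between 0.306 and 0.405). For Hey1 every knockout lay below every control, narrowly (highest knockout 10.44, lowest control 10.45), and the groups of Hes1 and Hey2 overlapped. Nrarp, a target that feeds back to limit Notch signalling, was at 0.44 ± 0.13 (adjusted p = 0.131), with all knockouts (7.16, 7.41 and 7.38) above all controls (7.04, 6.71 and 6.88).

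Enzymes that glycosylate Notch or internalise its ligands gave 0 calls among 13, with 3 at an unadjusted p under 0.05 and a median change of 0.079. Mfng, a Fringe enzyme that modifies the receptor's sugars, was at 0.31 ± 0.10 (adjusted p = 0.161). Eogt, which adds another sugar to the receptor, was at 0.27 ± 0.091 (adjusted p = 0.172). Lfng, a second Fringe named after its values were seen, was at -0.33 ± 0.13 (adjusted p = 0.236). The knockouts were all above the controls for Mfng and Eogt, and all below them for Lfng. Over the 13 genes, 2 were separated upward and 3 downward, beside 9.79% and 12.3% of all genes.

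Proteases that cut the receptor gave 0 calls among 9, with 0 at an unadjusted p under 0.05 and changes from -0.18 to 0.33. The largest differences for their error were those of the gamma-secretase subunit genes Aph1a (0.21 ± 0.096, adjusted p = 0.317) and Aph1c (0.33 ± 0.16, adjusted p = 0.349). Nuclear cofactors gave 0 calls among 20, with 1 at an unadjusted p under 0.05 and a median of -0.022. Kat2a, a histone acetyltransferase, was at 0.39 ± 0.11 (adjusted p = 0.114) and Cir1, a corepressor, at -0.24 ± 0.13 (adjusted p = 0.400).

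Genes of Notch turnover and inhibition had a median of -0.15 with 8 of 12 negative, 0 calls and 5 at an unadjusted p under 0.05. Dtx4, a Deltex ubiquitin ligase, was at -0.57 ± 0.14 (adjusted p = 0.0775), and Nedd4, another ubiquitin ligase, at -0.25 ± 0.072 (adjusted p = 0.116). Both had every knockout below every control. Over the 12 genes, 1 was separated upward and 4 downward, beside 9.79% and 12.3% of all genes. Of 8 further receptors and ligands, Notch3 was the single call.

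**Figure D4:**
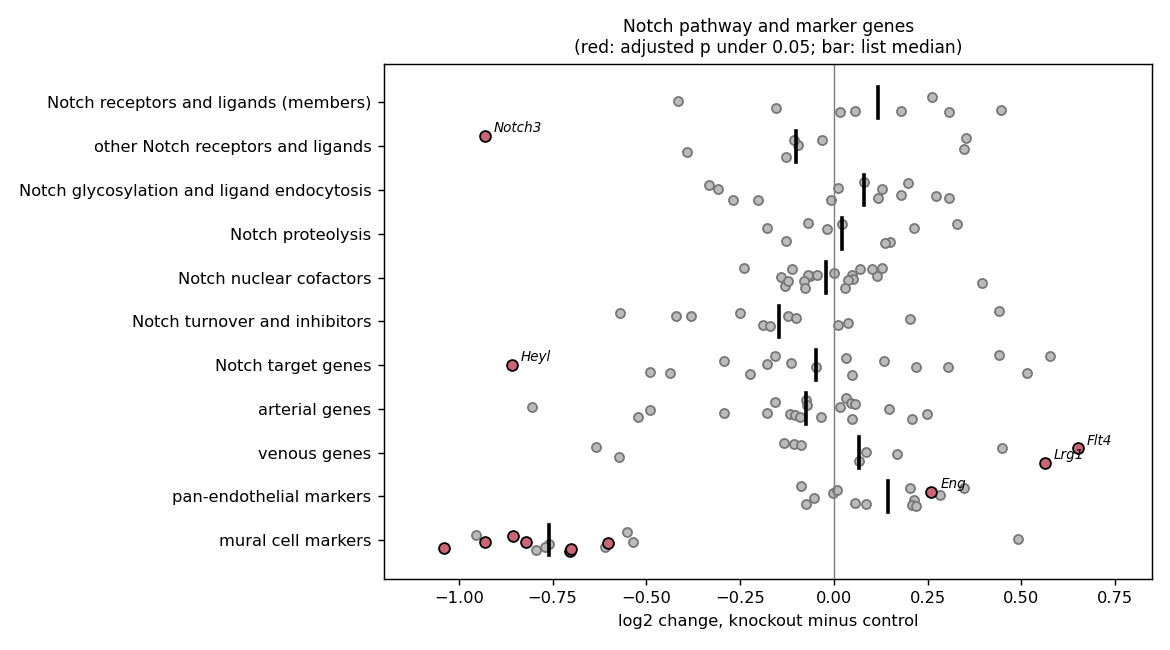
Each point is 1 gene above background, placed by its log2 change, knockout minus control (horizontal axis), and grouped by list (vertical axis, jittered within a list). Black bars are list medians and red points passed an adjusted p of 0.05. Notch3 and Heyl lie at -0.93 and -0.86, near the mural marker median of -0.76, and none of the 8 receptors, ligands and Rbpj is red.

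Vessel identity genes that go with Notch signalling gave a mixed result. Of 20 arterial genes, Dll4 and Jag1 among them, 0 passed, 12 had negative changes (median -0.073) and 3 had an unadjusted p under 0.05. Every knockout lay below every control for 6 of the 20 and above for 0, beside 12.3% and 9.79% of all genes tested. Alox12, a lipoxygenase, was at -0.81 ± 0.18 (adjusted p = 0.0567), and Sox17, a transcription factor of arterial endothelium, at -0.52 ± 0.12 (adjusted p = 0.0644). Venous genes had 2 calls, both higher, among 11, with 6 positive and 5 negative changes (median 0.067). Knockouts lay all above the controls for 2 of the 11 and all below for 3, beside 9.79% and 12.3% of all genes tested. Of those below, Aplnr was at -0.57 ± 0.15 (adjusted p = 0.0966) and Vcam1 at -0.64 ± 0.21 (adjusted p = 0.171). The venous calls were Flt4, a VEGF receptor also strong in lymphatic endothelium (1.57-fold, adjusted p = 0.0104), and Lrg1, a secreted glycoprotein (1.48-fold, adjusted p = 0.0227). The lymphatic marker Lyve1 was also called (2.19-fold). Other lymphatic markers were not called: Prox1 was at 0.056 ± 0.25, Reln at 0.18 ± 0.23, Mmrn1 at 0.32 ± 0.62, Itga9 at 0.26 ± 0.14 and Pdpn at -0.30 ± 0.18. Of the 7 lymphatic markers, 3 had every knockout above every control (Flt4, Lyve1 and Itga9) and 0 had every knockout below. The shares over all genes tested were 9.79% and 12.3%.

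The genes whose profile over the 6 arrays was most like that of Notch4 were Abcc4, Carhsp1 and Rhbdf1, among 13691 compared. Likeness was the root mean square difference after centring each gene on its control mean, which was 0.048 for Abcc4, 0.060 for Rhbdf1 and 0.061 for Carhsp1. All 3 were highest on knockout 2 (0.66, 0.52 and 0.73 above their control means for Abcc4, Rhbdf1 and Carhsp1), as Notch4 was at 0.65. Their own changes of 0.47 ± 0.11, 0.42 ± 0.12 and 0.51 ± 0.11 did not pass (adjusted p between 0.0535 and 0.116).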

How the data were processed

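Per the submitters' processing notes, the authors deposited log2 values from RMA in the oligo package (background correction, quantile normalization, probe summary), with no version given in the sources used here. Only the 23521 of 41345 probe sets with a single gene symbol were used, the brightest on average for each gene. Genes counted as above background when their mean exceeded the 90th percentile of 1432 chemosensory receptor genes. The 15287 genes left were fitted with limma 3.58.1 in R 4.3.3 (moderated, with a trend on the mean), and two-sided p-values were adjusted by Benjamini-Hochberg over all of them, with calls at 0.05. Changes are knockout minus control, and ± is the fit's standard error. Pairs of genes were tested by exact permutation over 20 splits. The fit was also run on simulated data with independent noise for each gene. Such data lack differences in cell content between arrays, so no support for the calls is drawn from them. The number of arrays limits the precision. Members, gene lists and tests were chosen with earlier results of these data known. Named genes were the members, each pathway list's called genes or else the 2 with the smallest p, and the brightest or most changed cell type markers. Plots used matplotlib 3.10.9 in Python 3.11.15.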

Additional observations from a re-analysis of the deposited data

How the results depend on the processing

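Notch1, Notch2, Notch4, Dll1 and Rbpj kept their direction in all 16 alternatives each. With arrays left out in turn their changes ranged from 0.23 to 0.29 (Notch1), -0.56 to -0.34 (Notch2), 0.35 to 0.50 (Notch4), 0.27 to 0.33 (Dll1) and -0.20 to -0.076 (Rbpj). The ranges were -0.048 to 0.13 for Dll4, -0.097 to 0.15 for Jag1 and 0.053 to 0.29 for Jag2. Over all alternatives the range was 0.061 to 0.32 for Notch1, -0.62 to -0.34 for Notch2, 0.25 to 0.50 for Notch4, 0.11 to 0.33 for Dll1 and -0.35 to -0.060 for Rbpj, the lowest of each coming from pan-endothelial scaling. Signs turned with pan-endothelial scaling for Dll4 (-0.14), Jag1 (-0.18) and Jag2 (-0.021). That scaling lowered the change of every gene by the same amount, to a median of -0.22 over all genes. Relative to that median, Dll4, Jag1 and Jag2 lay 0.074, 0.033 and 0.20 higher. Signs also turned against control 1 alone for Dll4 (-0.094) and Jag1 (-0.24), and with cyclic loess for Jag1 (-0.0037). The cause of these other turns was not tested. Notch4 passed with the stricter filter (0.45), which tests fewer genes (12327), and with equal medians (0.47). It also passed with the replicate block (0.45, adjusted p = 0.0460). Each of these gave 1 member called higher, where the fit as reported gave 0, and no alternative gave a member called lower. The labels do not say whether same-numbered arrays belong together. Deviations of same-numbered arrays correlated at -0.020, -0.0078 and 0.039, and 2 of 6 arrays correlated best with their own number. With 3 arrays per group these values cannot settle whether the arrays are paired. The block gave 394 calls against 399.

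Among the other pathway genes 1 was called higher, in place of 0, with the stricter filter, with equal medians, with the replicate block (Ccnd1 in each) and without control 3 (Egfl7), so that leaving out arrays gave 0 to 1. The count of lower genes, 2 as reported, was 1 without a filter, 3 with the replicate block (Snai2 added), 12 with pan-endothelial scaling, 0 without the variance trend, 0 against control 1 alone and 0 to 2 with arrays left out. Over all genes the count of 399 (173 higher, 226 lower) became 1586 with pan-endothelial scaling (110 higher, 1476 lower), 139 without the trend, 52 against control 1 alone, and 217, 172 and 91 without knockouts 1, 2 and 3. It was 379, 194 and 128 without controls 1, 2 and 3. With arrays left out, the within-array changes ranged from -0.050 to 0.18 for Dll4 minus Jag1, -0.36 to -0.19 for Dll4 minus Dll1, -0.23 to -0.12 for Jag1 minus Jag2, -0.25 to -0.079 for Notch1 minus Notch4 and 0.57 to 0.82 for Notch1 minus Notch2.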

Other observations

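On control 1, chosen for a closer look after the values were seen, 10 of the 18 arterial genes that are not among the 8 followed here had their highest value of the 6 arrays. Of the 8, 3 did (Notch2, Dll4 and Jag1), and over all genes tested the share was 19.8%. Genes in the rest of this section were also chosen after their values were seen. Efnb2, the arterial ephrin and a Notch target, was at 0.033 ± 0.094 (adjusted p = 0.909), with overlapping groups. Unc5b, a netrin receptor that is both an arterial gene and a Notch target, was at -0.49 ± 0.15 (adjusted p = 0.137), with every knockout below every control.

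A probe set annotated to both Dll4 and a predicted gene, and so not used, gave 6.14, 6.19 and 6.00 in the knockouts and 6.49, 6.29 and 6.02 in the controls. Its groups overlapped, as did those of the Dll4 probe set used. Dtx1, a Deltex gene like Dtx4, was at -0.38 ± 0.14 (adjusted p = 0.199), with every knockout below every control. Myc and Ccnd1, growth genes on the list of Notch targets, were at 0.58 ± 0.18 (adjusted p = 0.156) and 0.51 ± 0.12 (adjusted p = 0.0546), both with every knockout above every control, opposite in sign to Heyl.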
